A study of Mus musculus with 6 samples.

Results

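The granins and the prohormone processing genes were followed across 6 libraries of mouse primary cortical neuronal cultures. The set holds 10 genes, named by symbol, out of 31245 genes in the table, and all 10 were found and passed the minimum of a mean normalized count of 10 that 16653 genes reached. They are 5 granins and granin-like secreted proteins (Scg2, Chga, Chgb, Vgf and Scg3), the prohormone convertases Pcsk1 and Pcsk2, the small proteins that bind them (Pcsk1n and Scg5), and the carboxypeptidase Cpe. Cortices came from pups of postnatal day 1, and the cultures were used after 12 to 13 days in vitro. In the NGPF2 group, 3 cultures received NGPF2 at 1.5 ng/ml for 2 h. In the vehicle group, 3 cultures received PBS for the same 2 h. No genotype, strain or sex is given in the labels, and no transgene is named. The series describes 3 pairs of vehicle and NGPF2 cultures from 3 experiments, and pairs here join equal replicate numbers. NGPF2 is a name from the labels, which do not say what the agent is.

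Neurons and endocrine cells store peptides in dense-core vesicles. Granins are acidic proteins that aggregate in the trans-Golgi network, help these vesicles form, and are themselves cut into peptides. Precursors are cleaved after pairs of basic residues by the convertases encoded by Pcsk1 and Pcsk2, and the exposed basic residues are removed by carboxypeptidase E (Cpe). The product of Scg5 is the chaperone of the Pcsk2 convertase, and the product of Pcsk1n (proSAAS) can inhibit the Pcsk1 convertase. In cortex, the same machinery serves interneuron peptides and secreted trophic factors. Several of these genes are known to be transcribed through a cAMP response element (CRE), the site bound by CREB.

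The CRE letters of the members are shown because they separate genes of 1 family and because members carrying them did not move in 1 direction in these libraries. RefSeq windows of 300 bases (250 before and 50 after the annotated start, GRCm38.p6, the same build as mm10) were given for 8 of the 10 members and not for Vgf and Cpe. The full element TGACGTCA, which reads the same on both strands, was found in 3 of the 8, and 588 of 32851 windows of all genes (1.79%) hold it. Each sequence is 30 bases, 5′ to 3′ on the gene's strand, with the element in capitals.
Scg2: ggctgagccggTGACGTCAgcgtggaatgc
Chgb: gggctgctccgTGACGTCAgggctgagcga
Pcsk1: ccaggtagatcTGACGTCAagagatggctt
These lie at chr1:79440076-79440105 (minus strand), chr2:132781559-132781588 (plus strand) and chr13:75089768-75089797 (plus strand), and the element begins 68, 72 and 78 bases before the RefSeq start. The GENCODE genes of Scg2 (minus strand, ending at 79440120) and Chgb (plus strand, beginning at 132781278) start further upstream. In that annotation the elements of Scg2 and Chgb lie inside the gene, and that of Pcsk1 lies before it. The next 4 members hold no full element before the start but the core TGACG, or CGTCA where it lies on the other strand. This core of 5 letters is part of the full element and is counted here outside it.
Scg3: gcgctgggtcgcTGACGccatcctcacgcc
Chga: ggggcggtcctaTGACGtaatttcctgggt
Pcsk2: ctggcgggcgcgCGTCAcccgggctggcgc
Scg5: aaaggaggtaaaTGACGttcataggggtcg
They lie at chr9:75684069-75684098 (minus), chr12:102554885-102554914 (plus), chr2:143546087-143546116 (plus) and chr2:113829249-113829278 (minus), beginning 30, 44, 34 and 175 bases before the start. Of all windows, 20.8% hold the core on either strand, so these letters are common. That share counts the core inside or outside a full element and on either side of the start, a wider measure than the listing above. The window of Pcsk1n holds neither the core nor the full element. A match describes letters only.

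The library totals ran from 17478070 to 45193691 counts. In the titles, replicates 2 and 3 share a library name stem that neither library of replicate 1 has, and expression separated them along the same line, so each result is given for the 3 pairs and for replicates 2 and 3. Values are normalized counts (the count divided by the library's size factor), and log2 differences are NGPF2 minus vehicle of the normalized count plus 1. The series states that its pairs come from separate experiments, but the labels give no date or animal for replicates 2 and 3, so p-values measure the spread between these libraries. General neuron markers were abundant in every library, with summed normalized counts of 12 genes (such as Snap25, Map2 and Tubb3) between 236111 and 328822.

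Within replicates 2 and 3 the family divided, and in pair 1 it hardly moved. Scg2, Scg3, Vgf and Cpe fell with NGPF2 and Pcsk2, Chgb, Pcsk1n and Chga rose, by limma at an adjusted p under 0.05. So 8 of the 10 members passed, 4 in each direction, where 21.1% of all genes tested passed (9.77% higher and 11.3% lower). These calls depended on the variance trend and on the filter. With no variance trend 3 members passed (Scg2, Scg3 and Pcsk2), where 9.22% of all genes did, and Vgf (adjusted p = 0.0518), Chgb (adjusted p = 0.0630) and Pcsk1n (adjusted p = 0.0790) did not (limma). With no filter on low counts 0 members passed, where 1074 of 31245 genes did. The adjusted p was then 0.0556 for Pcsk2, 0.0560 for Scg3 and 0.0858 for Scg2 (limma). At an unadjusted p under 0.05 there were 9 members, against 36.8% of all genes. The largest changes were about equal for Scg2 and Scg3, 2.95-fold and 2.94-fold lower. In pair 1 the members' differences ran from -0.20 to 0.05 on the log2 scale. The median size of their difference there was 0.06, as it was over the 5813 genes with a mean of at least 1000 normalized counts (0.06). In pairs 2 and 3 it was 0.43 and 0.48 for the members, against 0.24 and 0.22 over those abundant genes. Large differences were common there, as 40.4% and 35.4% of those abundant genes differed by more than 0.3 in size.

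**Figure D1:**
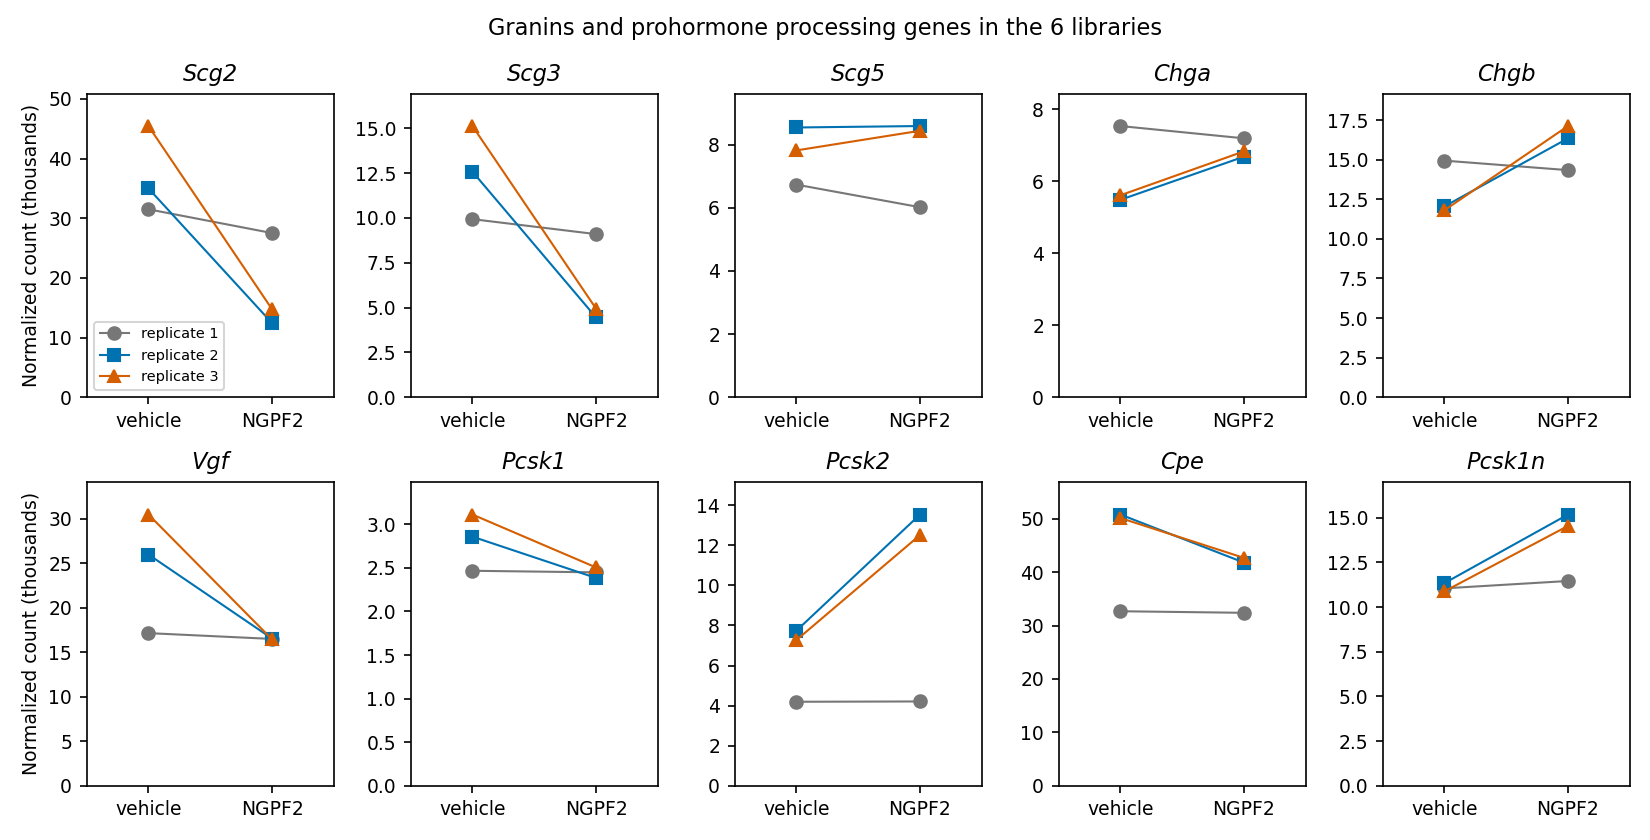
Normalized count in units of 1000 (vertical axis, from 0) of each of the 10 genes with vehicle and with NGPF2, 1 point per library, lines joining equal replicate numbers. Blue and orange lines (replicates 2 and 3) descend for Scg2, Scg3 and Vgf and climb for Pcsk2, while the grey line (replicate 1) is near level in most panels.

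Among the granins, Scg2 (ENSMUSG00000050711, mm10 chromosome 1, 79434669 to 79440120), the precursor of secretoneurin, stood at 31505, 35011 and 45466 normalized counts in vehicle 1, 2 and 3. With NGPF2 1, 2 and 3 it stood at 27519, 12428 and 14749. Every NGPF2 library lay below every vehicle library, but the gap rested on replicates 2 and 3, where the level was well under that of the vehicle. The log2 difference there was -1.56 (SE 0.15, adjusted p = 0.00489, limma), and pairs 1, 2 and 3 gave -0.20, -1.49 and -1.62.

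Scg3 (ENSMUSG00000032181, chromosome 9, 75643189 to 75684056) encodes secretogranin III, which binds chromogranin A and membrane cholesterol in the vesicle. Its normalized counts were 9936, 12586 and 15132 with vehicle and 9099, 4451 and 4943 with NGPF2. As for Scg2, the groups did not overlap, and vehicle 3 was the highest library for both genes. The log2 difference in replicates 2 and 3 was -1.56 (SE 0.11, adjusted p = 0.00255, limma), and the pairs gave -0.13, -1.50 and -1.61.

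Vgf (ENSMUSG00000037428, chromosome 5, 137026392 to 137033351), a neurotrophin-inducible precursor of several neuropeptides, stood at 17129, 25957 and 30446 normalized counts with vehicle. The NGPF2 libraries were within 1 narrow band, at 16478, 16522 and 16431. Vehicle 2 and 3 stood well above that band and vehicle 1 just above it. Within replicates 2 and 3 the gene was 1.71-fold lower (log2 -0.77, SE 0.09, adjusted p = 0.00786, limma), and pair 1 differed by -0.06.

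The 2 chromogranins went the other way. Chgb (ENSMUSG00000027350, chromosome 2, 132781278 to 132795079) stood at 14948, 12054 and 11810 normalized counts with vehicle and 14348, 16357 and 17134 with NGPF2. Chga (ENSMUSG00000021194, chromosome 12, 102554969 to 102565028) stood at 7540 (vehicle 1), 5488 and 5614 against 7198, 6688 and 6836. For both genes vehicle 1 was above vehicle 2 and 3, and the groups overlapped once replicate 1 was included. In replicates 2 and 3, Chgb was 1.40-fold higher (log2 0.49, SE 0.06, adjusted p = 0.00898, limma) and Chga 1.22-fold (log2 0.28, SE 0.06, adjusted p = 0.0331, limma). With the replicate number as a block, Chga no longer passed (adjusted p = 0.0620), and without NGPF2 3 it had an adjusted p of 0.0551. In pair 1 both were slightly lower with NGPF2, by -0.07 (Chga) and -0.06 (Chgb).

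The 2 convertases parted. Pcsk2 (ENSMUSG00000027419, chromosome 2, 143546156 to 143816285), the convertase that completes many neuropeptides, stood at 4190 (vehicle 1), 7738 and 7271 normalized counts with vehicle and 4205, 13538 and 12513 with NGPF2. Replicate 1 was low in both groups, and NGPF2 2 and 3 stood above all other libraries. The gene was 1.74-fold higher in replicates 2 and 3 (log2 0.80, SE 0.07, adjusted p = 0.00427, limma), with pair differences of 0.01, 0.81 and 0.78. Exons of Pcsk2 overlap those of the antisense gene Pcsk2os1 by 260 bases, whose mean of 49.6 normalized counts was small beside the mean of 8242 for Pcsk2, and those of Pcsk2os2 (mean 5.88) by 99 bases. Exons of Pcsk1n overlap the opposite-strand gene Eras by 135 bases. Whether counting used strand is not given in the sources used here.

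Pcsk1 (ENSMUSG00000021587, chromosome 13, 75089826 to 75134861), the convertase that makes the first cuts in many precursors, stood at 2467, 2859 and 3113 normalized counts with vehicle and 2449, 2385 and 2505 with NGPF2. Vehicle 2 and 3 were above NGPF2 2 and 3, and replicate 1 showed no gap beyond 0.01 on the log2 scale. The difference in replicates 2 and 3 was -0.29 (95% interval -0.49 to -0.09), which did not pass (adjusted p = 0.0594, limma). With library totals it passed as lower (adjusted p = 0.0282, limma).

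Of the convertases' partners, Pcsk1n (ENSMUSG00000039278, chromosome X, 7919822 to 7924410) stood at 11049, 11339 and 10881 normalized counts with vehicle and 11461, 15182 and 14543 with NGPF2. It was the steadiest member among vehicle libraries, and every NGPF2 library lay above every vehicle library. The difference in replicates 2 and 3 was 1.34-fold (log2 0.42, SE 0.06, adjusted p = 0.0136, limma).

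Scg5 (ENSMUSG00000023236, chromosome 2, 113776362 to 113829121), which encodes the chaperone of the Pcsk2 convertase, stood at 6730.3, 8539 and 7813 normalized counts with vehicle and 6015, 8585 and 8435 with NGPF2. The groups overlapped in replicates 2 and 3, the sole member for which they did. The log2 difference there was 0.06 (95% interval -0.12 to 0.24, adjusted p = 0.594, limma), and its sign changed with the scaling. The gene therefore did not pass while Pcsk2 did.

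Cpe (ENSMUSG00000037852, chromosome 8, 64592542 to 64693054) stood at 32685, 50806 and 50153 normalized counts with vehicle and 32391, 41802 and 42682 with NGPF2. Replicate 1 was low in both groups and equal between them to -0.01 on the log2 scale. In replicates 2 and 3 Cpe was 1.20-fold lower (log2 -0.26, SE 0.06, adjusted p = 0.0439, limma), which did not pass with the replicate block (adjusted p = 0.0862) or without NGPF2 2 (adjusted p = 0.0642).

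**Figure D2:**
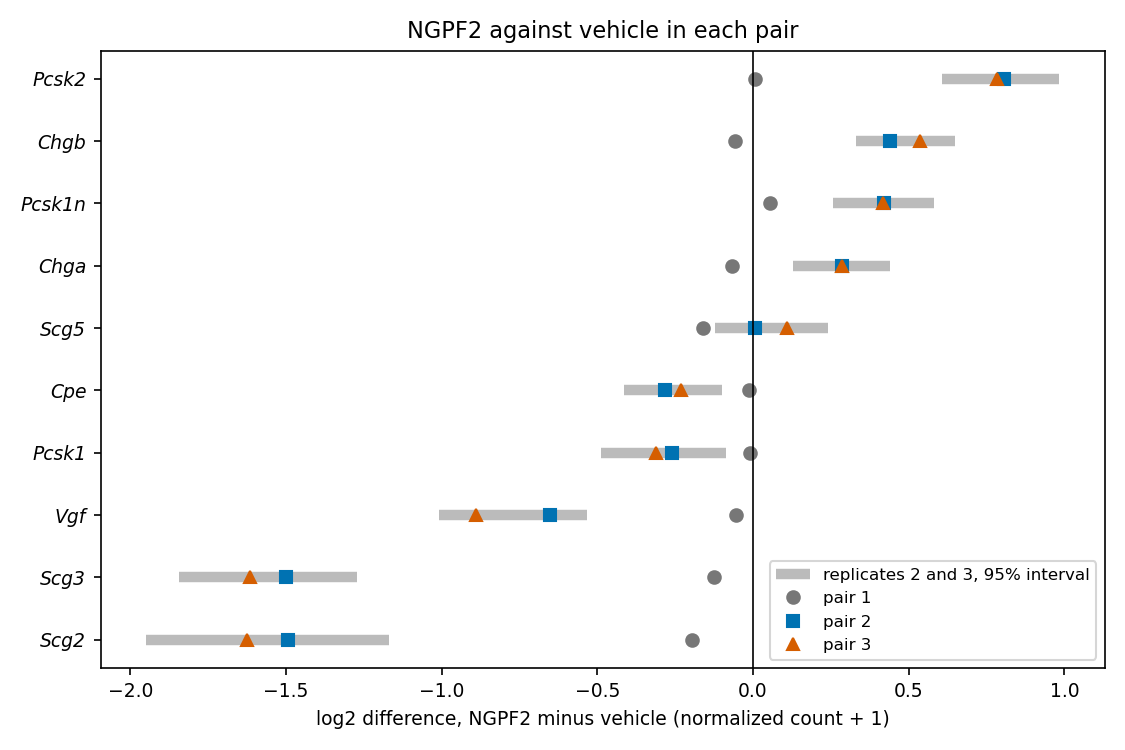
log2 difference of NGPF2 minus vehicle (horizontal axis) for each gene, as 1 point per pair and, as a grey bar, the 95% interval of the limma estimate in replicates 2 and 3. Pair 1 stays between -0.20 and 0.05, while pairs 2 and 3 lie close together from about -1.6 for Scg2 to 0.81 for Pcsk2.

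Non-overlap of the groups is common in these data. In replicates 2 and 3, 9 of 10 members had groups that did not overlap, and so had 64.9% of all genes tested. Over the 3 pairs 4 members did not overlap (Scg2, Scg3, Vgf and Pcsk1n), against 10% of all genes. The calls in replicates 2 and 3 needed both vehicle libraries. With vehicle 2 or vehicle 3 left out, 0 of 16653 genes and 0 of 10 members passed (limma). The vehicle then has 1 library, which is assumed to vary like the NGPF2 libraries, since these alone supply the spread. The differences kept their direction and much of their size, at -1.75 and -1.37 for Scg2, -1.69 and -1.42 for Scg3, -0.89 and -0.66 for Vgf and 0.84 and 0.75 for Pcsk2. Their adjusted p lay between 0.125 and 0.142 (limma). With NGPF2 2 left out 7 members passed, where 16.8% of all genes did, and with NGPF2 3 left out 7 members passed, where 19.3% did.

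Over the 3 pairs no member passed. With limma and the replicate block, 0 of 10 members and 0% of all genes reached an adjusted p of 0.05, as was the case with limma-voom on the recovered counts. At an unadjusted p under 0.05 there were 5 members (Scg2, Scg3, Vgf, Pcsk2 and Pcsk1n), where 13% of all genes were at that level. The mean normalized count of Scg2 fell short of that of the vehicle, at 18232 ± 8126 (SD, n = 3) against 37328 ± 7263 (SD, n = 3), a log2 difference of -1.10 (SE 0.29, adjusted p = 0.379, limma). Pcsk2 stood at 10085 ± 5118 and 6400 ± 1928 (SD, n = 3 each), a difference of 0.53 (SE 0.18, adjusted p = 0.379, limma). The adjusted p of the members ran from 0.379 for 5 members to 0.9495 for Scg5 (limma). With replicate 1 left out 6 members passed, where 19.7% of all genes did, and with replicate 2 or 3 left out no member and no gene passed.

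The difference between the response of replicates 2 and 3 and that of replicate 1 was itself tested, taking the lone libraries of replicate 1 to vary like the others. It passed for 1 of 10 members, Scg3 (-1.43, SE 0.19, adjusted p = 0.0377, limma), where 2.49% of all genes passed. No member passed as higher (0.721% of all genes) and 1 as lower (1.77%), and 7 members were at an unadjusted p under 0.05 (20.3%). Scg3 did not pass when any 1 of the 4 libraries of replicates 2 and 3 was left out (adjusted p of 0.335 and 0.345 without vehicle 2 and 3, and 0.0650 and 0.0554 without NGPF2 2 and 3). Pcsk2 (0.79, adjusted p = 0.0548), Scg2 (-1.36, adjusted p = 0.0742), Chgb (0.55, adjusted p = 0.0747) and Vgf (-0.71, adjusted p = 0.0957) did not pass with limma. With the replicate block added, Scg2 (adjusted p = 0.0130) and Pcsk2 (adjusted p = 0.0489) passed too (limma). The 2.49% of all genes above belongs to the fit without that block.

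Levels without NGPF2 also differed between vehicle 1, a single library whose own spread was not measured, and the other vehicle libraries. Vehicle 2 and 3 against vehicle 1 gave 5 of 10 members past an adjusted p of 0.05, where 19.9% of all genes passed (limma). These p-values take vehicle 1 to vary like the other groups and compare that library, not a kind of culture, with the rest. The split was 3 higher (10.5% of all genes) and 2 lower (9.42%), and 8 members were at an unadjusted p under 0.05 (34.7%). Pcsk2 (0.84, SE 0.09, adjusted p = 0.00647), Cpe (0.63, SE 0.07, adjusted p = 0.00766) and Vgf (0.71, SE 0.11, adjusted p = 0.0160) were higher in vehicle 2 and 3. Chga (-0.44, SE 0.07, adjusted p = 0.0182) and Chgb (-0.33, SE 0.08, adjusted p = 0.0414) were lower. These calls needed both vehicle 2 and vehicle 3. With 1 of them left out, 1 vehicle library is compared with 1. This comparison shares vehicle 2 and 3 with the test of NGPF2 in replicates 2 and 3, so the 2 sets of values are not independent.

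Other cell types moved together with these differences. Of 12 astrocyte markers 11 were kept and all 11 fell in replicates 2 and 3, where 11.3% of all genes tested fell. Their pair medians were 0.02, -3.05 and -2.76 on the log2 scale. Their summed normalized counts were 29913, 77183 and 69218 with vehicle and 33203, 20739 and 17730.2 with NGPF2, and Gjb6 was at 0 in at least 1 library. Of 10 microglia markers 8 were kept and 6 fell, with sums between 466 and 1489 for vehicle and between 53.8 and 1559 for NGPF2, the defining markers Cx3cr1, Aif1, Tmem119 and Itgam being at 0 in at least 1 library. Of 5 markers of oligodendrocyte precursors 3 fell (sums of 3498 to 7278 with vehicle and 1254 to 3606 with NGPF2, none at 0), and of 8 fibroblast and mural markers 3 fell (516 to 3501 and 174 to 3184, Lum at 0 in at least 1 library).

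By their medians, neuron markers moved less. Of 12 general neuron markers 6 rose in replicates 2 and 3 and none fell, with pair medians of 0.02, 0.32 and 0.25. Calls for excitatory markers were 4 higher and 2 lower out of 8, and for inhibitory markers 5 higher and 3 lower out of 10. The shares over all genes tested were 9.77% higher and 11.3% lower. The 3 lower inhibitory markers were Sst, Npy and Vip, which are counted again among the peptide precursors below. Pvalb changed most among the inhibitory markers. It rose from 46.4 and 48.9 in vehicle 2 and 3 to 420 and 488 in NGPF2 2 and 3 (log2 3.22). Endothelial markers were scarce, with 2 of 5 kept, summed counts of 30.5 to 99.95 over the 6 libraries, Cldn5, Cdh5 and Kdr at 0 in at least 1 library, and no call. Over all genes the median difference in replicates 2 and 3 was below 0.01 in size. The size factors are set from a median over genes and hold that value near 0. With library totals it was -0.13. The part of these markers in the members' differences was not tested. In RNA from whole cultures, fewer cells of a type and less RNA per cell cannot be told apart.

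**Figure D3:**
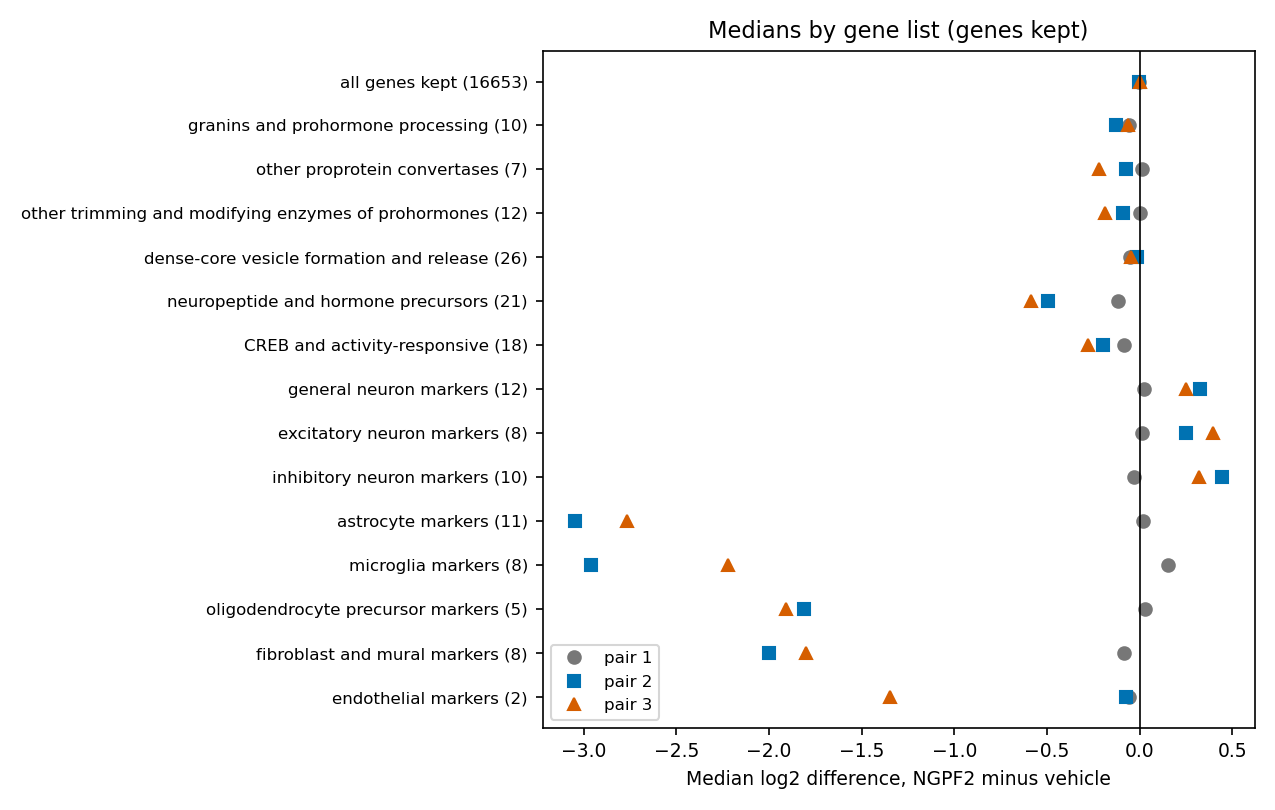
Median log2 difference of NGPF2 minus vehicle (horizontal axis) in each pair for the 10 genes, for the other gene lists and for all genes kept, with the number of genes kept in parentheses. Medians of pair 1 lie near 0 for every list, and in pairs 2 and 3 the astrocyte markers stand at -3.05 and -2.76 while the general neuron markers stand at 0.32 and 0.25.

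Because neuron markers rose, the fit was repeated with each library scaled to the 12 general neuron markers, a choice made after the data were seen. This moved the median of all genes in replicates 2 and 3 to -0.30, and 32.8% of all genes passed. The scaling lowers every gene by the same amount, so it adds calls in the lower direction and removes them in the higher. On this scale the differences were lower than 0 for Scg2 (-1.86, adjusted p = 0.00249), Scg3 (-1.85, adjusted p = 0.00125) and Vgf (-1.07, adjusted p = 0.00285, limma). Cpe (-0.55, adjusted p = 0.00426), Pcsk1 (-0.58, adjusted p = 0.00817) and Scg5 (-0.24, adjusted p = 0.0473) also passed as lower, of which Pcsk1 and Scg5 did not pass before this common shift. Pcsk2 passed as higher (0.50, adjusted p = 0.00787). Chgb (0.19, adjusted p = 0.0667), Pcsk1n (0.12, adjusted p = 0.173) and Chga (-0.012, adjusted p = 0.894) did not pass. Against the shift of -0.30 in the median gene, Scg5 was not lower than most genes. Scaling to library totals moved the median gene by -0.13 and left 3 members higher and 5 lower (21.9% of all genes passed), with Pcsk1 (adjusted p = 0.0282) added and Chga (adjusted p = 0.143) lost. Quantile normalization also gave 3 higher and 5 lower, where 20.4% of all genes passed (Pcsk1 at an adjusted p of 0.0334, Chga at 0.203).

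**Figure D4:**
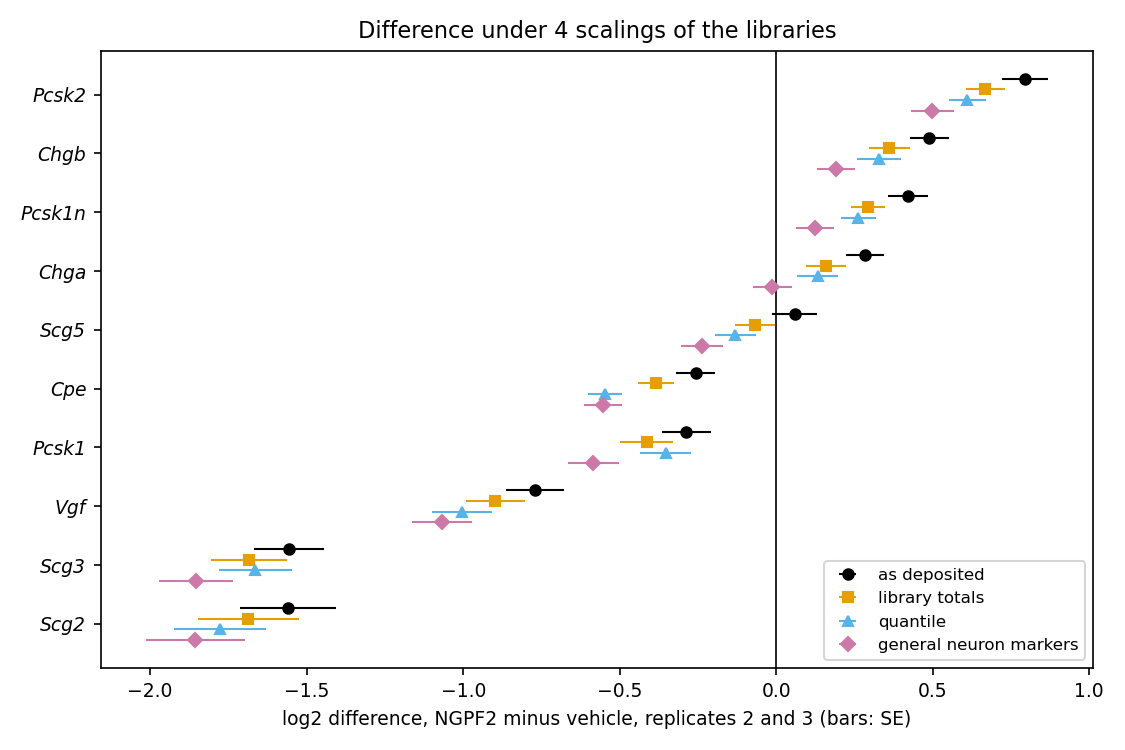
log2 difference of NGPF2 minus vehicle in replicates 2 and 3 (horizontal axis, bars are SE of the limma fit) for each gene under 4 scalings of the libraries. Scg2, Scg3 and Vgf stay below 0 and Pcsk2 stays above 0 under each of the 4, while Chga ranges from -0.012 to 0.28 and Scg5 from -0.24 to 0.06.

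Levels were compared between genes per kilobase of annotated exon (the union of exons of all isoforms). Cpe was the most abundant member in all 6 libraries, from 12415 to 19473 normalized counts per kb, and Pcsk1 the least, from 426 to 555. In vehicle 1, Scg2 (12527) was level with Cpe (12528). Scg2 was second in the 3 vehicle libraries and in NGPF2 1, and in NGPF2 2 and 3 it fell to the sixth and the fourth place at 4941 and 5864 normalized counts per kb, behind Pcsk1n and Chgb. Scg3, between 3323 and 5527 in those same 4 libraries, stood at 1626 and 1805 in NGPF2 2 and 3, where Pcsk2 reached 1712 and 1582. Over the 6 libraries the highest level was 3.66 times the lowest for Scg2, 3.40 times for Scg3 and 3.23 times for Pcsk2, and at most 1.85 times for the other 7. In the middle of the order, Chgb, Scg5 and Pcsk1n overlapped in their ranges (4310 to 6253, 3834 to 5472 and 4962 to 6923), so their order is not fixed.

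**Figure D5:**
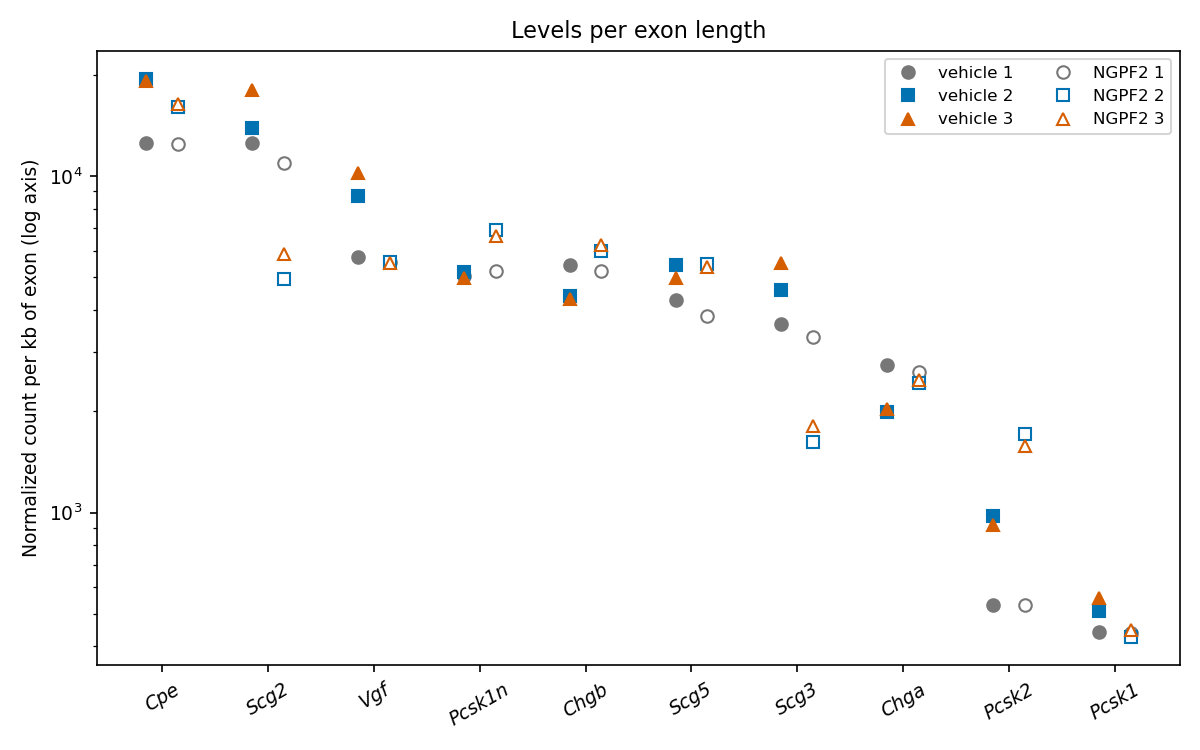
Normalized count per kb of exon (vertical log axis) of the 10 genes in each library, filled symbols for vehicle and open symbols for NGPF2. Cpe is highest and Pcsk1 lowest in each library, and the open blue and orange symbols of Scg2 and Scg3 lie below all other libraries of the same gene.

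Ratios of members within a library do not depend on a scaling by 1 factor per library, as size factors, library totals and neuron markers are, but quantile normalization can change them. Scg2 to Chgb, per kb, took the values 2.30, 3.16 and 4.19 for the vehicle libraries in order of replicate, and 2.09, 0.828 and 0.938 for the NGPF2 libraries. So Scg2 exceeded Chgb in 4 libraries and was below it in NGPF2 2 and 3. The chaperone-to-convertase ratio, Scg5 to Pcsk2, was 8.10, 5.56 and 5.42 with vehicle and 7.21, 3.20 and 3.40 with NGPF2. Pcsk2 to Pcsk1 was 1.20, 1.92 and 1.65 against 1.22, 4.02 and 3.54, the 2 highest values again being NGPF2 2 and 3. Pcsk1n to Pcsk1 was 11.4, 10.1 and 8.93 against 11.96, 16.3 and 14.8. Chga to Chgb varied less, between 0.397 and 0.501 in all 6 libraries. It was 0.501, 0.453 and 0.473 with vehicle and 0.499, 0.406 and 0.397 with NGPF2. The 2 lowest values were again those of NGPF2 2 and 3. No test was made on these ratios.

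As a share of all counts, the 10 genes took 0.478%, 0.586% and 0.647% in vehicle 1, 2 and 3. With NGPF2 1, 2 and 3 they took 0.454%, 0.426% and 0.449%. The widest 95% Wilson interval was 0.644% to 0.650% (vehicle 3), covering counting error only. The share was lower with NGPF2 in each pair, but the vehicle libraries alone spread from 0.478% to 0.647%, which is wider than the gap in pair 1, and no test was made.

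The rest of the pathway was read from lists chosen with earlier results of these data known. Of 7 other proprotein convertases 1 rose and 1 fell in replicates 2 and 3, where 9.77% of all genes rose and 11.3% fell. Furin, the convertase of the constitutive pathway, rose from 1286 and 1356 to 1877 and 1827 normalized counts (log2 0.49, adjusted p = 0.0146, limma), and Pcsk6 fell from 132 and 136 to 66.9 and 82.6 (log2 -0.84, adjusted p = 0.0451, limma). Pcsk7 did not pass (0.55, adjusted p = 0.0572, limma). The median of the list was -0.16.

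Of 13 other trimming and modifying enzymes 12 were kept, 1 rose and 3 fell, with a median of -0.16. Over all genes tested 9.77% rose and 11.3% fell. Qpct, the glutaminyl cyclase that caps peptides with pyroglutamate, fell from 479 and 502 to 237 and 258 normalized counts (log2 -0.98, adjusted p = 0.00814, limma). The carboxypeptidase-like genes Cpxm1 (-0.70) and Cpxm2 (-1.43) fell and the aminopeptidase Rnpep rose (0.49). Pair 1 differed by -0.07 for Qpct and -0.02 for Rnpep.

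Of 26 genes of dense-core vesicle formation and release 3 rose and 6 fell, with a median of -0.08. The shares over all genes tested were 9.77% higher and 11.3% lower. Cadps2, a priming factor of dense-core vesicles, fell from 1651 and 1867 to 807 and 863 normalized counts (log2 -1.07, adjusted p = 0.00422, limma). Rab27b, a GTPase of vesicle docking, fell from 1148 and 1170.1 to 453 and 538 (log2 -1.23, adjusted p = 0.00450, limma), and Syt9, a synaptotagmin, from 705 and 707 to 339.5 and 359 (log2 -1.01, adjusted p = 0.00529, limma). Rab3a (0.41) and Rab3d (0.53), GTPases of regulated secretion, rose. In pair 1 these 5 genes differed by between -0.15 and 0.06.

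Peptide precursors, the cargo of this machinery, also went both ways. Of 23 listed genes 21 were kept, 3 rose and 10 fell, with a median of -0.52, where 9.77% of all genes rose and 11.3% fell. The 10 include Crhbp (-0.92), which encodes a binding protein and not a precursor. They also include Bdnf (-0.52), which is counted again in the list of activity and CREB genes below. Sst, Npy and Vip, also among the 10, are the lower inhibitory markers counted above. The difference in replicates 2 and 3 was -1.08 for Sst and -1.58 for Cort, and it was 1.92 for Penk, 1.08 for Pdyn and 0.45 for Pnoc (limma). Penk, the enkephalin precursor, rose from 663 and 769 to 2505 and 2918 normalized counts (adjusted p = 0.00205) and stood at 3922 and 3781 in vehicle 1 and NGPF2 1.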

How the data were processed

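RNA of 6 cultures (3 per group) was analysed from 1 deposited table. Per the submitters' processing notes, STAR 2.5, FastQC, DESeq 1.22.1 and Cuffnorm were used with mm10, their roles not being given. The authors deposited log2 values in a table named as FPKM. Raising 2 to the value and subtracting 1 gave whole multiples of 1 step for 100% of values in each library (tolerance 0.01 of a count), so the values are log2 of a size-factor-normalized count plus 1, and whole counts were recovered. The deposited log2 values were tested for genes whose normalized count averaged 10 or more.

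The columns of replicate 1 carry an initial and the digit 3 and were assigned by elimination. Symbols were matched for 31185 of 31245 identifiers. The 10 genes and all lists were chosen with earlier results of these data known. Of each other list, the text names the 3 genes of smallest p in replicates 2 and 3 and up to 2 that passed in the opposite direction. Marker lists are given mainly as counts, and a few further genes are named to qualify a count. Alternatives covered the pseudocount, the filter, the scaling, the variance trend, limma-voom, the block and leaving out each library.

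Tests used limma 3.58.1 in R 4.3.3 (moderated by empirical Bayes, variance trended on mean level, 2-sided, threshold 0.05 after Benjamini-Hochberg adjustment over 16653 genes). The 3 pairs were fitted with the replicate number as a block, following the series' statement of pairs, and replicates 2 and 3 without one. As a check, deviations from the group means had a Pearson r across genes of 0.59 in pair 1, 0.30 in pair 2 and 0.33 in pair 3, whereas vehicle 2 with NGPF2 3 gave 0.34 and vehicle 3 with NGPF2 2 gave 0.32. The scripts were tested on simulated data. Exon lengths and coordinates come from GENCODE M21 and promoter windows from RefSeq. Figures were drawn with matplotlib 3.10.9.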

Additional observations from a re-analysis of the deposited data

Results flagged for a closer look

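Scg3 was singled out because its response to NGPF2 differed between replicate 1 and replicates 2 and 3 by a test of that difference itself. The log2 difference was 1.43 more negative in replicates 2 and 3 than in replicate 1, a value of -1.43 (SE 0.19, 95% interval -1.93 to -0.93, adjusted p = 0.0377, limma), and it was lower with NGPF2 in all 3 pairs. Over the alternatives the adjusted p ran from 0.00797 to 0.345 and the value from -1.72 to -1.30. Replicate 1 holds 1 library per group, so its spread was taken from replicates 2 and 3. No group reached the 4 samples needed to look for single outlying libraries.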

How the results depend on the processing

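Neuron marker scaling was chosen after seeing the data. Scg2, Scg3, Vgf, Pcsk1 and Cpe stayed lower and Pcsk2, Chgb and Pcsk1n higher under each alternative run for the 3 pairs and for replicates 2 and 3. Scg5 changed sign in replicates 2 and 3 with quantile normalization (-0.13), library totals (-0.068), limma-voom (-0.071) and neuron marker scaling (-0.24). It also did so there when 1 library was left out (-0.00499 to 0.12, negative without vehicle 3). Over the 3 pairs it did so when 1 pair was left out (-0.077 to 0.059, positive without replicate 1). In the difference between replicates 2 and 3 and replicate 1 it did so with neuron marker scaling (-0.067). Chga changed sign with neuron marker scaling over the 3 pairs (-0.033) and in replicates 2 and 3 (-0.012). Pcsk1n, in vehicle 2 and 3 against vehicle 1, did so with quantile normalization (-0.12), library totals (-0.00796), limma-voom (-0.00744), neuron marker scaling (-0.13) and when 1 library was left out (-0.022 to 0.037, negative without vehicle 2). The cause was not tested.

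Over the 3 pairs, 1 gene passed with a pseudocount of 8, without the replicate block or with only replicate 1 against 2 and 3 as block, and leaving out a pair gave 0 to 3275 genes, 0 to 3 members higher and 0 to 3 lower. In replicates 2 and 3, 1074 of 31245 genes passed with no filter (0 members higher, 0 lower). There 1535 genes (9.22%) passed with no variance trend (1 and 2) and 5456 (32.8%) with neuron marker scaling (1 higher). With the replicate block 3275 passed (3 members higher, 3 lower), and leaving out 1 library gave 0 to 3206 genes, 0 to 4 members higher and 0 to 4 lower. For the difference between replicates 2 and 3 and replicate 1, 4684 of 31245 genes passed with no filter (2 members higher, 0 lower). There, 733 passed at a mean of at least 50 (1 and 2), 22 with no trend (0 lower) and 1551 with limma-voom (1 and 4). In that comparison 858 passed with neuron marker scaling (3 lower). The member counts named next are given without the number of all genes called, which was 415 (2.49%) in the main fit. There 1 member was higher with a pseudocount of 8, with library totals, with quantile normalization (3 lower) and with the replicate block (2 lower), and leaving out 1 library gave 0 to 412 genes and 0 members higher and 0 lower. For vehicle 2 and 3 against vehicle 1, 1232 genes passed with no trend (0 members higher, 0 lower) and 5118 with limma-voom (5 higher). There 1 member was lower with no filter, given without the number of all genes called, which was 3322 (19.9%) in the main fit. Leaving out 1 library gave 0 to 3898 genes, 0 to 3 members higher and 0 to 2 lower. No member was near the floor of 3 counts, the lowest holding 1396.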

Other observations

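Genes whose pattern over the 6 libraries was most like that of a member were sought by Pearson r of log2 values. The search covered 11947 genes with a mean of at least 100 normalized counts (n = 6 libraries, a description only). These libraries share groups and, in part, a library name stem. For Vgf the closest were Nfkbil1 (r = 0.999), Ankrd34c (r = 0.995) and Cyb5r1 (r = 0.994), for Chgb Apbb3 (r = 0.997), Ppp1cc (r = 0.994) and Ndufa10 (r = 0.994), and for Cpe Pnrc2, Tsen15 and Vwa3a (r = 0.996 each). Among the members, Pcsk1n and Scg2 were the most opposed (r = -0.97).

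Genes known for transcription after activity or through CREB also moved in both directions. Of 18 such genes 3 rose and 5 fell in replicates 2 and 3, with a median of -0.18. Over all genes tested 9.77% rose and 11.3% fell. Dusp1, a MAP kinase phosphatase, fell from 1254 and 1327 to 529.6 and 564 normalized counts (log2 -1.24, adjusted p = 0.00272, limma). Fos fell (-0.64), while Arc (0.54), Junb (0.59) and Ppargc1a (0.36) rose. Of all genes kept whose RefSeq window holds the full element TGACGTCA, 405 in number, 38 rose and 36 fell in replicates 2 and 3 (9.38% and 8.89%), against 10.4% and 12.3% of the 11701 genes kept that have a window. The 3 members with the element were 2.95-fold lower (Scg2), 1.40-fold higher (Chgb) and not past the threshold (Pcsk1). No test compared these shares, and the part of the element in the members' differences was not tested.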
